A study of Mus musculus with 2 samples.

Results

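The forkhead factors of the Foxo, Foxc and Foxp subfamilies were followed in endothelial cells (EC) of the E10.5 mouse AGM, the region of aorta, gonads and mesonephros in which blood stem cells first arise. The genes were taken by symbol from the table of RPKM values, that is, read numbers scaled to the length of the gene and to the depth of the library. Of 6 symbols sought, 5 had an entry, namely Foxo1, Foxo3, Foxc1, Foxc2 and Foxp1, out of 12684 genes in all. Foxp4 had no entry and was not analysed here. GFP-depleted EC were the CD31+CD117-CD45- cells without GFP from embryos carrying a Runx1+23GFP transgene, in which an enhancer of Runx1 drives the reporter (genotype label GFP+). Bulk EC were CD31+CD117-CD45- cells of WT littermates, with no gate on the reporter. The sorting protocol of the labels gives the first population as GFP-negative, whereas another passage of the source text sets GFP-positive HE cells against vascular EC; the labels were followed, and every ratio below rests on them. The strain label of both libraries was Runx1+23GFP, and the sources used here do not give how many embryos were pooled. The comparison was made to find transcription factors that act upstream in hemogenic endothelium (HE). There was 1 library per group, so no test was possible, no difference below has a replicate check, and the ratios describe these 2 libraries.

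Forkhead factors bind DNA through a winged-helix domain, the forkhead box. Foxo proteins are held in the cytoplasm when AKT phosphorylates them downstream of growth factor receptors, and they enter the nucleus and activate genes of cell cycle arrest, survival and stress resistance when that signal falls. Foxc1 and Foxc2 act together in mouse embryos in paraxial mesoderm and in arterial and lymphatic vessels, and Foxp1 is mainly a repressor that works as a dimer with its relatives. In early endothelium, forkhead and ETS factors share composite enhancer motifs.

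The stretch of DNA that encodes the recognition helix of the forkhead box is shown for the Foxo and Foxc factors, because these genes are paralogs and their reads must be told apart. The sequences are the coding strand of GENCODE M1 transcripts on mm9, 54 bases each, with capitals for the 28 bases that are the same in all 4 genes.
Foxo1: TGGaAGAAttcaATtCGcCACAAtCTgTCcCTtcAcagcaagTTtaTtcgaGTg
Foxo3: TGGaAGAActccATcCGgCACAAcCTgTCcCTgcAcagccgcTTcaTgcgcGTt
Foxc1: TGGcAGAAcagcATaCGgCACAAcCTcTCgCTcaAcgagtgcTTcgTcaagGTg
Foxc2: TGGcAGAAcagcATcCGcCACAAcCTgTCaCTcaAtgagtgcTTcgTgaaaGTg
These stretches lie at chr3:52073339-52149008 (plus strand), chr10:41917660-41994627 (minus strand), chr13:31899440-31899493 (plus strand) and chr8:123640857-123640910 (plus strand). In Foxo1 and Foxo3 an intron interrupts the stretch after its first 6 bases, whereas Foxc1 and Foxc2 are genes of 1 exon. Foxc1 and Foxc2 were identical at 47 of the 54 bases (87.0%), and Foxo1 and Foxo3 at 41 (75.9%). Foxo1 and Foxc1 shared 30 bases (55.6%), the fewest of the 6 pairs. At the length of a read the genes were distinct. Of the 100-base words in the transcripts of each of the 5 factors, 0 occurred in an annotated protein-coding transcript of another gene.

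None of the 5 factors passed the threshold of 1.5 fold that the study set, in either direction. The background was high: 15.3% of all 12684 genes were past 1.5 fold toward GFP-depleted EC and 23.6% toward bulk EC, together 38.9%. Foxp1 was the most abundant factor and nearly equal in the libraries, Foxo1 and Foxo3 had slightly larger values in GFP-depleted EC and Foxc1 and Foxc2 smaller ones. The sign of Foxc2 turned after adjustment for GC content, and that of Foxp1 turned on median centring and on quantile normalization. The intervals beside the ratios are exact 95% intervals of the read numbers recovered from the table and cover counting error only.

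Foxo1 (ENSMUSG00000044167), a factor without which mouse embryos die with failed vessel growth, spans 52072340 to 52151010 on the plus strand of chromosome 3. It was at 9.83 RPKM in GFP-depleted EC and 8.35 RPKM in bulk EC, from about 799 and 5092 reads. The ratio of GFP-depleted EC over bulk EC was 1.18 (1.09 to 1.27), so the difference was larger than counting error and smaller than the threshold. Genes on the opposite strand cover 12.1% of its exonic bases, and without strand those reads cannot be told apart. Foxo3 (ENSMUSG00000048756, chromosome 10, 41901647 to 41996561, minus strand), known for keeping hematopoietic stem cells and ovarian follicles quiescent, was at 3.81 RPKM in GFP-depleted EC and 3.56 RPKM in bulk EC. Its ratio of 1.07 (0.962 to 1.19) was within counting error of equality. Foxo1 was 2.58-fold above Foxo3 in GFP-depleted EC (2.29 to 2.92) and 2.35-fold above it in bulk EC (2.24 to 2.46). The balance of the pair therefore differed by a factor of 1.10 (0.968 to 1.25) between the libraries, which did not exceed counting error.

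Foxc1 (ENSMUSG00000050295, chromosome 13, 31898515 to 31902504, plus strand) was the factor with the clearest difference toward bulk EC. It stood at 6.85 RPKM in GFP-depleted EC and 9.07 RPKM in bulk EC, from about 400.0 and 3975 reads. The ratio was 0.755 (0.680 to 0.837), which is 1.32-fold higher in bulk EC. Foxc2 (ENSMUSG00000046714, chromosome 8, 123640483 to 123642792, plus strand), which also shapes lymphatic valves, was the lowest of the 5, at 1.04 RPKM in GFP-depleted EC and 1.49 RPKM in bulk EC. Only about 35.0 reads stood behind the first value and 377 behind the second. Its ratio of 0.697 had a wide interval (0.478 to 0.986) that left out equality and reached past the threshold, so the size of the difference, from slight to over 1.5 fold, could not be told at this depth. Foxc1 was 6.62-fold above Foxc2 in GFP-depleted EC (4.68 to 9.64) and 6.11-fold above it in bulk EC (5.49 to 6.80). Both paralogs had ratios below 1 with overlapping intervals, although Foxc2 turned to the other side after adjustment for GC content.

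Foxp1 (ENSMUSG00000030067, chromosome 6, 98875332 to 99216509, minus strand) was at 19.9 RPKM in GFP-depleted EC and 20.2 RPKM in bulk EC. With about 3474 and 26411 reads it was the factor measured with the least counting error, and its ratio of 0.987 (0.952 to 1.02) lay next to 1. The log2 ratio of Foxp1 was closer to 0 than that of all but 2.31% of genes. It made up 48.0% of the summed RPKM of the 5 factors in GFP-depleted EC, against 47.3% in bulk EC. The sums themselves were 41.4 RPKM in GFP-depleted EC and 42.6 RPKM in bulk EC.

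**Figure D1:**
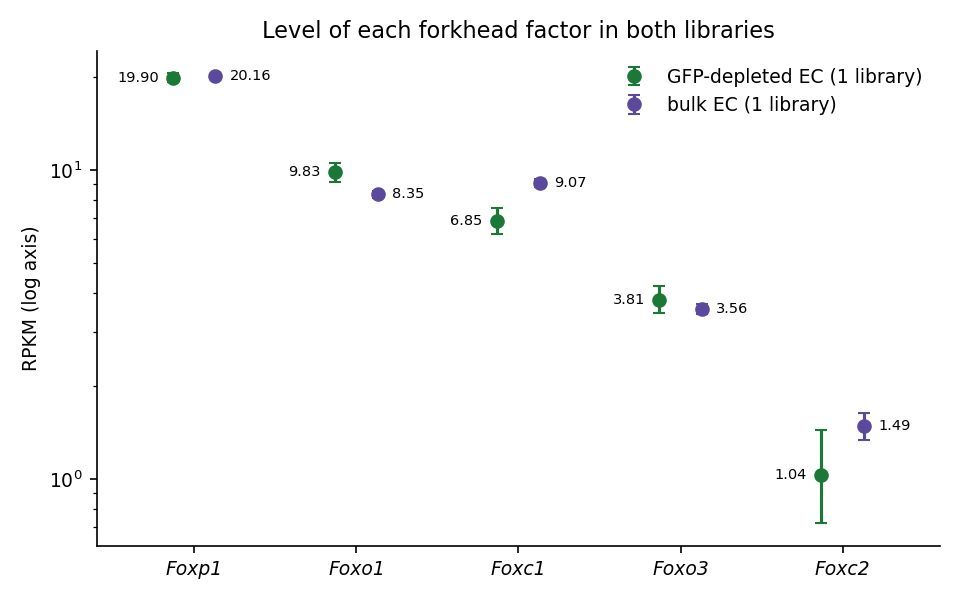
Level of each factor in RPKM (log axis) in GFP-depleted EC and bulk EC, 1 library each; bars are exact 95% counting intervals and do not include the spread between embryos. Foxp1 is highest in both libraries and Foxc2 lowest, and Foxo1 and Foxc1 change places.

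The order of the levels differed at one place. In GFP-depleted EC it ran Foxp1, Foxo1, Foxc1, Foxo3, Foxc2, and in bulk EC Foxp1, Foxc1, Foxo1, Foxo3, Foxc2. Foxo1 was 1.43-fold above Foxc1 in GFP-depleted EC (1.27 to 1.62), whereas it was at 0.920 of the Foxc1 level in bulk EC (0.883 to 0.960). This ratio is taken within a library and does not depend on the scaling between libraries. The order within each library was not adjusted for GC content, which differs between the 2 genes. The ratio of Foxo1 over Foxc1 differed by a factor of 1.56 between the libraries (1.37 to 1.77), and by 1.33 after adjustment for GC content. Adjusted factors here rest on values with 0.3 RPKM added and unadjusted ones on plain values. Part of the change between them can come from the added 0.3 RPKM. Foxo1 over Foxc2 differed by a factor of 1.69, but with a wide interval (1.19 to 2.41) and on the other side of equality after the adjustment (0.878). Foxo3 over Foxc1 gave 0.556 in GFP-depleted EC, against 0.392 in bulk EC, a factor of 1.42 (1.22 to 1.64). All 10 pairs were compared after the values had been seen, and the intervals of all neighbours in either order excluded equality by counting error alone. Among all genes the factors held middle ranks: Foxp1 was at percentile 70.1 of the levels in GFP-depleted EC, against 68.6 in bulk EC, Foxo1 at 56.4 and 51.3, Foxc1 at 49.0 and 53.1, Foxo3 at 36.3 and 33.0, and Foxc2 at 12.6 and 17.0.

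The promoters of the 2 factors that changed places are shown, from RefSeq on GRCm38.p6, from 250 bases before to 50 bases after the annotated start. Capitals mark the motifs searched on both strands, which were CCAAT (the box bound by NF-Y), GGGCGG (the GC box), TGTTTAC (a forkhead core motif) and TATAAA (the TATA motif).
Foxo1: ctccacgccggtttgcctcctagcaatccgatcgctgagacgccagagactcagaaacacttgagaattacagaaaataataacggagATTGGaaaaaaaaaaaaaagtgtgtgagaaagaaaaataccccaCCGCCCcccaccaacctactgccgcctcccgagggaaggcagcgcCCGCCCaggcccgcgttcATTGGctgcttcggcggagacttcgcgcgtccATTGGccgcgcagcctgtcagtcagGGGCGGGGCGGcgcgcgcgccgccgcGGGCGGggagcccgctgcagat
Foxc1: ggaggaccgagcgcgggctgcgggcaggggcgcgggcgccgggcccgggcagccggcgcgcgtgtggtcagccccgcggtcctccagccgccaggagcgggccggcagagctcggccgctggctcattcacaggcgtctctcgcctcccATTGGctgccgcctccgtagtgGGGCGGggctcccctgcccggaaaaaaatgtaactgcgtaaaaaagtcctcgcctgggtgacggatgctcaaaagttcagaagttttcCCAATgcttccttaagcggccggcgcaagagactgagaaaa
The Foxo1 window lies at chr3:52268087-52268386 and the Foxc1 window at chr13:31806396-31806695, both on the plus strand. CCAAT occurred 3 times at Foxo1 and 2 times at Foxc1, and in 37.4% of the 32851 mouse promoters of the same length. GGGCGG occurred 5 times at Foxo1, where 2 copies overlap by a base, and once at Foxc1, and in 35.7% of promoters. Neither window held TGTTTAC, which was found in 3.65% of promoters, or TATAAA, found in 13.6%. The GC content was 61.3% at Foxo1 and 67.3% at Foxc1, against a median of 52.7% over all promoters. RefSeq promoters matched 4 of the 5 factors.

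The log2 ratio of a gene followed the GC content of its exons in these libraries, and adjusting for it moved the Foxc genes. Log2 ratios were taken after adding 0.3 RPKM to both values, which understates the change of low genes. Spearman's rho across 10382 protein-coding genes with a mean of 1 RPKM or more was -0.382, a description only, since genes of 1 library are not replicates. The median log2 ratio was -0.64 in the decile of genes richest in GC and 0.20 in the poorest decile. Exonic GC content was 45.5% in Foxp1, 50.3% in Foxo1, 53.0% in Foxo3, 53.9% in Foxc1 and 62.1% in Foxc2. After the trend was subtracted, the log2 ratio of Foxc1 was -0.16 in place of -0.39, and that of Foxc2 was 0.44 in place of -0.42, on the other side of 0. Foxo1 was at 0.25 in place of 0.23, Foxo3 at 0.26 in place of 0.09, and Foxp1 at -0.11 in place of -0.02. After adjustment, too, 0 of the 5 factors passed 1.5 fold.

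**Figure D2:**
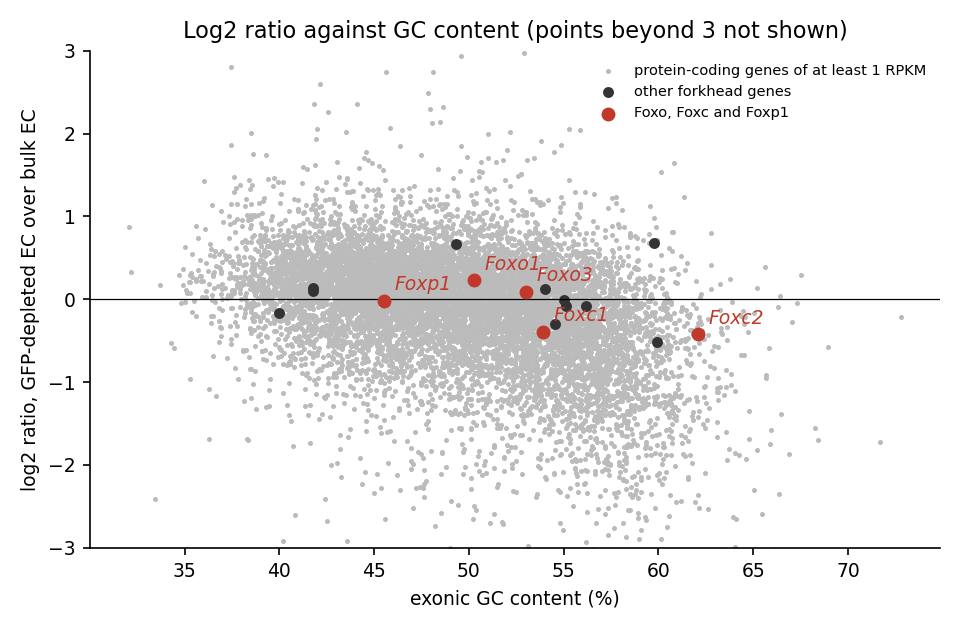
Log2 ratio of GFP-depleted EC over bulk EC (0.3 RPKM added) against exonic GC content in percent, for protein-coding genes of at least 1 RPKM (grey), the 5 factors (red) and the other forkhead genes (black). The grey cloud falls toward high GC content, where Foxc2 lies at 62.1% and Foxc1 at 53.9%.

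**Figure D3:**
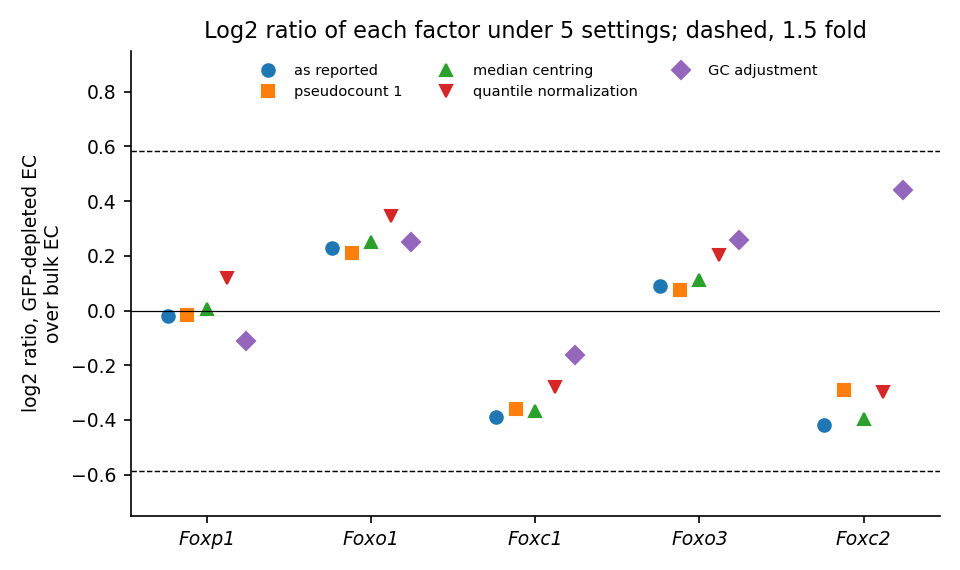
Log2 ratio of each factor, GFP-depleted EC over bulk EC, as reported and under 4 other settings; dashed lines mark 1.5 fold. Foxo1 and Foxo3 stay above 0 and Foxc1 below it, Foxp1 crosses 0 on centring or quantile normalization, and Foxc2 reaches 0.44 after GC adjustment.

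The 5 factors were then placed among the forkhead genes. Of 44 genes with a forkhead symbol in GENCODE M1, 16 had an entry, and of these 14 stayed within 1.5 fold. Toward GFP-depleted EC 2 of the 16 passed the threshold, where 15.3% of all genes did. Toward bulk EC 0 of the 16 passed it, where 23.6% of all genes did. The median log2 ratio of the 16 was -0.01, and that of all genes -0.02. After GC adjustment the medians were 0.24 for the forkhead genes and 0.04 for all genes. Foxn3, a checkpoint suppressor, was the most abundant, at 115.3 RPKM in GFP-depleted EC and 72.3 RPKM in bulk EC, a ratio of 1.59 (1.54 to 1.64). Foxn3 made up 58.0% of the forkhead sum in GFP-depleted EC, against 46.3% in bulk EC, and the 5 factors together made up 20.8%, against 27.3%. Foxf2, a factor of pericytes and gut mesenchyme, was at 6.36 RPKM in GFP-depleted EC and 3.87 RPKM in bulk EC, a ratio of 1.64 with an interval (1.41 to 1.90) that reached below the threshold. Foxn2 (9.06 RPKM in GFP-depleted EC and 8.43 RPKM in bulk EC) and Foxm1, a driver of mitotic genes (7.57 and 6.95 RPKM), were near equal. Foxp2, a dimer partner of Foxp1, was at 1.43 RPKM in GFP-depleted EC and 1.63 RPKM in bulk EC.

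**Figure D4:**
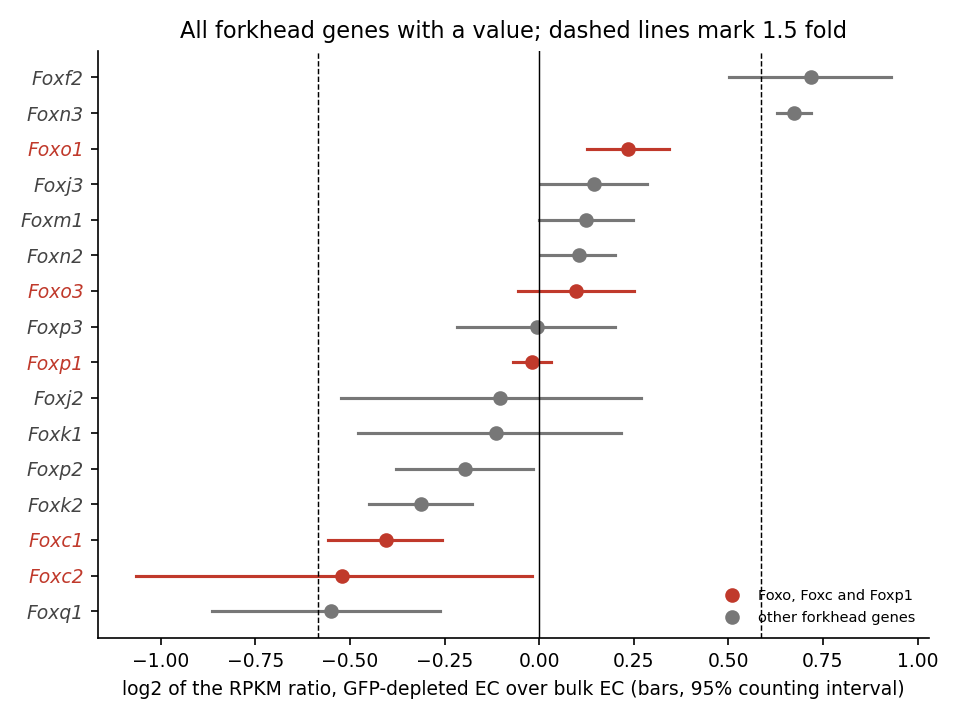
Log2 of the plain RPKM ratio, GFP-depleted EC over bulk EC, for the 16 forkhead genes with a value; bars are exact 95% counting intervals and dashed lines mark 1.5 fold. Foxf2 and Foxn3 lie past the line on the side of GFP-depleted EC, and the 5 factors in red lie between the lines, with only the interval of Foxc2 reaching across one.

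Foxc1 ends a cluster of forkhead genes on chromosome 13 whose members differed in direction. The cluster was looked at after the values were known. Foxq1, Foxf2 and Foxc1 lie within 252.2 kb on the plus strand, Foxc1 175.2 kb beyond Foxf2. Foxq1, at 3.42 RPKM in GFP-depleted EC and 5.01 RPKM in bulk EC, had a ratio of 0.683 (0.549 to 0.835), below 1 like that of Foxc1, while Foxf2 between them had a ratio above 1. After GC adjustment the log2 ratio of Foxq1 was 0.20 and that of Foxf2 1.37, so the side of Foxq1 turned. Genes on the opposite strand cover 41.6% of the exonic bases of Foxq1. Beside Foxc2 on chromosome 8, Mthfsd was at 10.3 RPKM in both libraries, with an interval of the ratio from 0.928 to 1.08.

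Genes on which the Foxo factors depend were compared next, starting with the PI3K and AKT pathway, which excludes Foxo proteins from the nucleus. Of 20 listed genes 17 had a value, and 1 of them was higher in GFP-depleted EC, whereas 4 were higher in bulk EC. The 4 are 23.5% of the list, against 23.6% of all genes, and the 1 is 5.88%, against 15.3%. The median log2 ratio of the list was -0.07. Irs2, an adaptor of the insulin receptor, was at 0.362 RPKM in GFP-depleted EC and 2.23 RPKM in bulk EC (log2 ratio -1.94), and the PI3K subunit gene Pik3r2 at 0.262 and 1.25 RPKM (-1.47). After GC adjustment these log2 ratios were -0.97 for Irs2 and -0.72 for Pik3r2. Only about 21 reads of Irs2 and 16 of Pik3r2 stood behind the values in GFP-depleted EC. The kinase gene Akt2 was at 2.97 RPKM in GFP-depleted EC and 7.13 RPKM in bulk EC (-1.18). Sgk1, a kinase that also phosphorylates Foxo proteins, was at 35.3 RPKM in GFP-depleted EC and 37.1 RPKM in bulk EC, and Akt1, chosen after its values were seen, at 31.2 and 35.9 RPKM. The log2 ratio of Akt1 was -0.20, and 0.56 after GC adjustment. Insr, the insulin receptor gene and itself a known Foxo target, was the 1 gene higher in GFP-depleted EC (2.18 RPKM, against 1.25 RPKM in bulk EC).

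Among 18 regulators and cofactors of Foxo proteins, 2 were higher in GFP-depleted EC (11.1%, with 15.3% over all genes). In bulk EC 1 was higher (5.56%, with 23.6% over all genes), and the median log2 ratio was 0.01. The acetyltransferase genes Crebbp (18.2 RPKM in GFP-depleted EC and 10.01 RPKM in bulk EC, log2 ratio 0.84) and Ep300 (3.51 and 2.06 RPKM, 0.69) were the 2, and the arginine methyltransferase gene Prmt1 (16.5 and 31.5 RPKM, -0.92) was the 1. Mdm2, a ubiquitin ligase gene, was at 11.4 RPKM in GFP-depleted EC and 16.2 RPKM in bulk EC, within the threshold. The 14-3-3 gene Ywhae, whose protein retains phosphorylated Foxo in the cytoplasm, was at 1994 RPKM in GFP-depleted EC and 1953 RPKM in bulk EC.

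Of 30 listed Foxo target genes 22 had a value. Insr was again the 1 higher in GFP-depleted EC (4.55%, with 15.3% over all genes). In bulk EC 6 were higher (27.3%, with 23.6% over all genes), and the median log2 ratio over the list was 0.03. Besides Irs2, which is in this list too, the cell cycle inhibitor gene Cdkn1a was at 15.6 RPKM in GFP-depleted EC and 33.5 RPKM in bulk EC (log2 ratio -1.09). The stress gene Gadd45a was at 6.04 RPKM in GFP-depleted EC and 11.8 RPKM in bulk EC (-0.93), and Pik3ip1, a brake on PI3K, at 1.86 and 3.78 RPKM (-0.92). The autophagy gene Map1lc3b, the most abundant of the list, was at 164.8 RPKM in GFP-depleted EC and 124.4 RPKM in bulk EC. Of 10 immediate early genes, which respond to handling of cells and include stress genes, none was higher in GFP-depleted EC (15.3% over all genes). In bulk EC 8 were higher (80%, with 23.6% over all genes). The sums of the 10 genes were 126.4 RPKM in GFP-depleted EC and 318.5 RPKM in bulk EC. Their part in the differences of Cdkn1a and Gadd45a was not tested.

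Toward bulk EC, genes known for FOX:ETS motifs in their mouse enhancers were called about as often as all genes. Of 9, none was higher in GFP-depleted EC (15.3% over all genes), and the median log2 ratio was -0.0056. Higher in bulk EC were 2 of the 9 (22.2%, with 23.6% over all genes). These were Tal1, a master factor of blood specification (2.29 RPKM in GFP-depleted EC and 4.57 RPKM in bulk EC, log2 ratio -0.91), and the receptor gene Notch4 (5.98 and 9.90 RPKM, -0.70), whose log2 ratio was -0.0033 after GC adjustment. Mef2c, in whose enhancer the motif was described, was at 64.7 RPKM in GFP-depleted EC and 49.8 RPKM in bulk EC, the VEGF receptor gene Flt1 at 19.1 and 24.2 RPKM, and Pecam1, which encodes CD31, at 153.9 and 154.5 RPKM. Of 8 vascular genes known to depend on Foxc1 and Foxc2 in mice, none was higher in GFP-depleted EC (15.3% over all genes). In bulk EC 4 were higher (50%, with 23.6% over all genes), or 3 after GC adjustment. The median log2 ratio of these 8 was -0.55, or -0.01 after GC adjustment. The adjusted log2 ratios of the 3 were -2.62 for Itgb3, -1.03 for Cxcr4 and -0.96 for Hey2. The integrin gene Itgb3 was at 0.675 RPKM in GFP-depleted EC and 6.11 RPKM in bulk EC (log2 ratio -2.72), the chemokine receptor gene Cxcr4 at 0.980 and 2.18 RPKM (-0.95), and the Notch target Hey2 at 2.43 and 4.69 RPKM (-0.87). Only about 26 reads of Cxcr4 stood behind its value in GFP-depleted EC. The interval of its plain ratio, 0.292 to 0.671, reached inside the threshold of 1.5 fold. Notch4 was the 4th, and Efnb2, the arterial ephrin gene, was at 41.0 RPKM in GFP-depleted EC and 37.2 RPKM in bulk EC.

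Corepressor genes of Foxp proteins, mostly of the NuRD complex, were compared with Foxp1, which was itself nearly equal. Of 14, 1 was higher in GFP-depleted EC (7.14%, with 15.3% over all genes) and 6 were higher in bulk EC (42.9%, with 23.6% over all genes), or 4 after GC adjustment. The median log2 ratio was -0.43, or -0.22 after GC adjustment. The NuRD subunit genes Mbd3 (14.02 RPKM in GFP-depleted EC and 44.9 RPKM in bulk EC, log2 ratio -1.66) and Chd4 (14.6 and 26.5 RPKM, -0.85) and the corepressor gene Ctbp1 (8.85 and 18.6 RPKM, -1.04) were lower in GFP-depleted EC, with log2 ratios after GC adjustment of -0.73 for Mbd3, -0.64 for Chd4 and -0.58 for Ctbp1, the last just under the threshold. Gatad2b, another subunit, was 2.88-fold higher in GFP-depleted EC (14.6 RPKM, against 5.07 RPKM in bulk EC). Rbbp4, a histone chaperone gene, was the most abundant, at 305.3 RPKM in GFP-depleted EC and 333.7 RPKM in bulk EC.

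**Figure D5:**
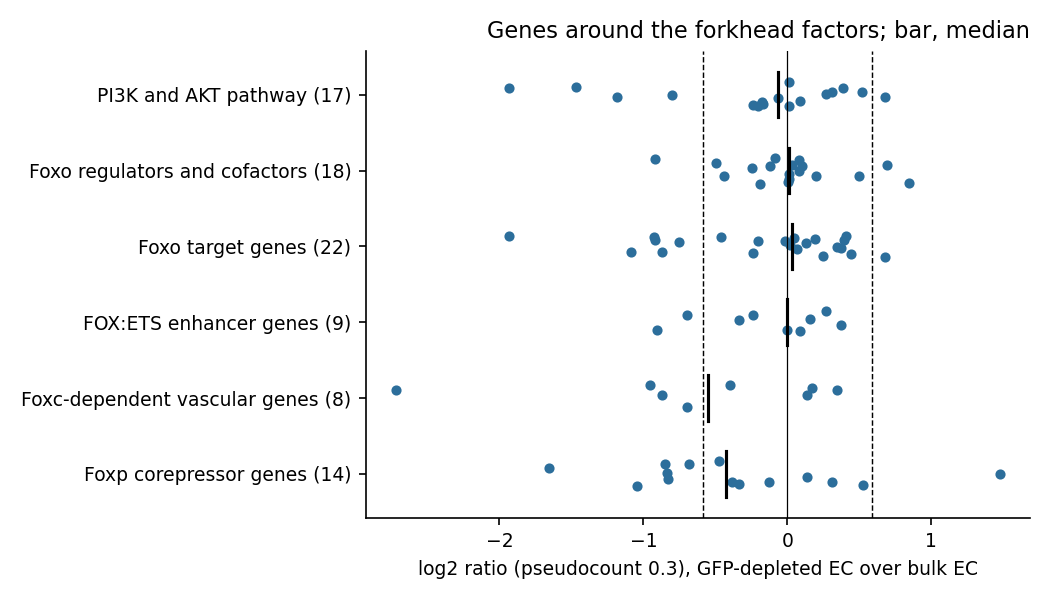
Log2 ratio (0.3 RPKM added) of GFP-depleted EC over bulk EC for each measured gene of 6 lists around the forkhead factors, with the number of genes in brackets; black bars are medians and dashed lines mark 1.5 fold. The medians of the first 4 lists lie between -0.07 and 0.03, and those of the Foxc-dependent and Foxp corepressor lists at -0.55 and -0.43.

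The libraries also differed in markers of other cells and in depth. The depth recovered from the values was about 14630800 reads for GFP-depleted EC, against 109788000 for bulk EC. All 13 endothelial markers were present, with Egfl7 at 566.8 RPKM in GFP-depleted EC and 870.9 RPKM in bulk EC, Emcn at 458.8 and 360.3 RPKM and Esam at 404.2 and 351.8 RPKM. The sum of the 13 was 2017 RPKM in GFP-depleted EC and 2389 RPKM in bulk EC. Of the 13, 4 were higher in bulk EC (30.8%, with 23.6% over all genes). These were Egfl7, Eng (10.2 RPKM in GFP-depleted EC and 63.0 RPKM in bulk EC), Sox18 (15.5 and 41.8 RPKM) and Cldn5 (83.5 and 197.2 RPKM), the last 3 named after their values were seen. After GC adjustment the log2 ratio was -0.06 for Egfl7, -2.09 for Eng, -0.63 for Sox18 and -0.48 for Cldn5. Runx1, whose enhancer drives the reporter of the gate, was at 0.621 RPKM in GFP-depleted EC and 0.662 RPKM in bulk EC, a difference within counting error (ratio 0.937, 0.724 to 1.20), and Meis1 was at 8.33 and 19.2 RPKM. Because Foxc1 and Foxc2 are also expressed in paraxial mesoderm and mesenchyme, markers of these tissues stand beside them. Of 7 mesenchyme genes with an entry, Lum was higher in GFP-depleted EC and 5 were higher in bulk EC, and their sum was 12.5 RPKM in GFP-depleted EC and 14.03 RPKM in bulk EC. The highest were Snai2 (8.41 RPKM in GFP-depleted EC and 6.31 RPKM in bulk EC), Col3a1 (0.337 and 2.80 RPKM) and Twist1 (0.761 and 1.67 RPKM, log2 ratio -0.89, or -0.20 after GC adjustment). The 3 somite genes with an entry were all higher in bulk EC, with sums of 2.35 RPKM in GFP-depleted EC and 6.72 RPKM in bulk EC. These were Tcf15, Meox1 and Myf6, the last listed at 0 in GFP-depleted EC, and Tcf15 had a log2 ratio of -0.59, or 0.51 after GC adjustment. The part of such cells in the levels of Foxc1 and Foxc2 was not tested, and in bulk RNA fewer cells of a type and less RNA per cell cannot be told apart. Platelet markers, which include Itgb3, were higher in bulk EC for 10 of 10 (sums of 97.7 RPKM in GFP-depleted EC and 1277 RPKM in bulk EC, with Gp6 listed at 0 in GFP-depleted EC), and their part in the level of Itgb3 was not tested. Erythroid markers were higher in bulk EC for 7 of 8, myeloid markers for 4 of 4, nephric and epithelial markers for 3 of 3 and neural markers for 1 of 2. The background for all these marker lists was 23.6% of all genes higher in bulk EC and 15.3% higher in GFP-depleted EC.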

How the data were processed

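RNA of 2 sorted EC populations was sequenced, 1 library each. The authors amplified cDNA with a SMART kit, ran the libraries in 1 HiSeq lane, aligned reads to mm9 and deposited RPKM values per gene; BWA 0.5.7 and Cuffdiff appear in the submitters' processing notes with no step assigned to them. How reads were counted, on which annotation and with which strand is not given in the sources used here. A column with the authors' ratio of bulk EC over GFP-depleted EC was not used. The table held 12899 rows; for repeated symbols the row with the highest mean was kept, leaving 12684 genes. The lowest mean was 0.500 RPKM, so low genes had been removed before deposit. The members and gene lists were chosen with earlier results of these data known.

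Calls followed the study: at least 0.3 RPKM in 1 library and a plain ratio above 1.5. Log2 ratios are GFP-depleted EC over bulk EC with 0.3 added to both values. Depth was recovered from features under 150 bases, whose values were whole multiples of 1 covered base (tolerance 0.15) for 98.1% of 369 values in GFP-depleted EC and 95.6% of 360 in bulk EC, and from the read length that fitted longer features best, 100 bases. Multiples of that length were 25.9% of 571 longer features in GFP-depleted EC and 10.7% of 328 in bulk EC, against 1% by chance. All read numbers and intervals rest on this length. Intervals are exact 95% intervals of read numbers and treat PCR-amplified reads as independent; those of a ratio of ratios are normal approximations. Read numbers use exon lengths of GENCODE M1 (mm9), and the table's own span for genes of 1 exon. GC content came from the same annotation for 95.7% of genes, and its trend was fitted by lowess (span 0.3, statsmodels 0.14.6) on protein-coding genes of at least 1 RPKM and subtracted less its median. The code was tested on simulated data. List symbols absent from the table were matched through gene identifiers and synonyms.

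Genes named were the members, forkhead genes past 1.5 fold with at least 1 RPKM, the 3 most abundant other forkhead genes, up to 4 genes of each of 6 pathway lists with the largest absolute log2 ratio and the most abundant one, the 3 most abundant of the marker lists whose members are given, and Runx1 and Meis1; 1 gene of the PI3K and AKT list that this rule names and 1 sequence are not reported here. Other genes named (Insr, Akt1, Foxp2, Foxp3, Foxq1, Mthfsd, Lum, Gp6, Eng, Sox18 and Cldn5) were chosen after their values were seen. Alternatives were a threshold of 2 fold, a pseudocount of 1, a filter at a mean of 1 RPKM, median centring, quantile normalization, GC adjustment and protein-coding genes only.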

Additional observations from a re-analysis of the deposited data

How the results depend on the processing

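No paired analysis was possible because there was 1 library per group, and no replicate could be left out. In each of the 7 settings run, 0 of the 5 factors passed the threshold. The threshold of 2 fold, the pseudocount of 1, the filter and the protein-coding setting could not have passed any of them. For the count, only median centring, quantile normalization and GC adjustment were therefore informative. Foxo1 stayed between 0.21 and 0.34 on the log2 scale, Foxo3 between 0.08 and 0.26 and Foxc1 between -0.39 and -0.16, while Foxc2 ranged from -0.42 to 0.44 and Foxp1 from -0.11 to 0.12. GC adjustment moved Foxc1 (-0.16), Foxc2 (0.44), Foxo3 (0.26) and Foxp1 (-0.11) outside their counting intervals, and left the FOX:ETS list with 1 gene higher on each side and the Foxo regulators with 2 higher in bulk EC. Quantile normalization gave Foxo1 0.34 and Foxp1 0.12, with 2 genes of the PI3K and AKT list and 2 Foxo targets higher in GFP-depleted EC. A pseudocount of 1 left 0 of the PI3K and AKT list, 0 of the Foxo targets and 1 of the Foxo regulators higher in GFP-depleted EC. At 2 fold, which passes fewer genes by construction, 839 genes were higher in GFP-depleted EC, against 1683 in bulk EC, with 0 forkhead genes in GFP-depleted EC. At that threshold, the counts higher in GFP-depleted EC were 0 for the PI3K and AKT list, 0 for Foxo regulators and 0 for Foxo targets. Those higher in bulk EC were 0 for Foxo regulators, 0 for the FOX:ETS list, 3 for Foxo targets, 2 for the Foxc-dependent list and 2 for Foxp corepressors. The other 129 values stayed within their counting intervals or within 1.5 times the reported count. Many of the 129 could not differ. The threshold of 2 fold, the filter and the protein-coding setting leave the log2 ratios of the 5 factors unchanged by construction. The cause of these shifts was not tested, for the GC adjustment as for the other settings. About 35.0 reads of Foxc2 in GFP-depleted EC limit what can be said of it.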

Other observations

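Foxf2 lay apart from the GC relation. At an exonic GC content of 59.8% its log2 ratio was 0.68, whereas the decile of genes richest in GC had a median of -0.64. Foxp3, known as the factor of regulatory T cells, was at 3.70 RPKM in GFP-depleted EC and 3.71 RPKM in bulk EC although both populations were sorted as CD45-negative. Genes on the opposite strand cover 14.9% of the exonic bases of Foxp3 and genes on its own strand 6.75%, and reads of such overlaps cannot be told apart without strand. Both genes were chosen after their values were seen.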
